A study of Bos taurus with 2 samples.

Results

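The citrate cycle and fatty acid oxidation were described here through 49 named genes in the muzzle of HanWoo, the native Korean cattle breed (Bos taurus). The genes were given as a list of symbols for their known roles, chosen with earlier results of these data known. Of them, 46 had at least 1 probe on the array that could be named through its RefSeq accession. In all, 9647 genes were named in this way. DLD, CPT1A and ESRRA were not analysed here. The samples were total RNA of the muzzle from 1 light-muzzle cow, labelled yellow, and 1 dark-muzzle cow, labelled black. Both were females of 30 months, both came from 1 farm, and the front part of the muzzle was removed at slaughter and frozen. Each RNA was read alone on 1 Agilent bovine array with 43803 noncontrol spots, of which 78.8% (light muzzle) and 81.9% (dark muzzle) were well above background. With 1 array per muzzle color no test can be made, and each difference is a difference between 2 animals. The number of arrays limits the precision.

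The citrate cycle is the ring of mitochondrial enzymes that burns acetyl-CoA to carbon dioxide and passes the electrons to the respiratory chain. Fatty acids reach it through a chain of steps: binding and activation in the cytosol, transfer into the mitochondrion as carnitine esters, and repeated shortening by beta-oxidation, which releases acetyl-CoA at each round. Skeletal muscle, above all its oxidative fibres, and heart are known for high levels of these enzymes, while skin fibroblasts and keratinocytes hold less of them. The muzzle of cattle contains epidermis, dermis, serous glands and, below them, striated muscle.

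All values are on a log2 scale. A level is the log2 processed signal of a probe, relative to the 75th percentile of its array, and a log2 ratio is the dark-muzzle minus the light-muzzle level. Where a pair of levels is given without names, the light-muzzle level comes first. Levels of different probes depend on the probe, so they were compared only between the cows. Where a gene had several probes, its ratio is the mean over probes well above background in both cows, given with the SD between these probes. That SD covers the spread of probes on these 2 arrays and not the spread between cows. For a single probe, the scanner software's own error of the ratio had a median of 0.20 over the probes of these genes.

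Most of the 46 genes had the higher level in the dark-muzzle sample. The median log2 ratio was 0.93, and 42 genes had a ratio above 0, as did 55.2% of all 8914 named genes with a ratio. A total of 21 genes (45.7%) were at least 2-fold higher, whereas 9.86% of all named genes were. No gene of the set was at least 2-fold lower, against 6.47% of all named genes. Among the 32 genes with a mean level at or above 0, 15 were at least 2-fold higher, against 10.7% of all named genes at such levels. Because the genes were chosen with earlier results of these data known, these shares describe the set and are not independent evidence. In a piece of tissue, fewer cells of a type and less RNA per cell cannot be told apart.

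The probes of a gene mostly gave the same direction. Of 125 probes, 123 were well above background in both cows, and no probe of these genes carried an outlier spot. For 41 of the 43 genes with several measured probes, every probe lay on the same side of 0, against 70.7% of all genes with several probes. In 19 of the 43 genes every measured probe was at least 2-fold higher, against 6.38% of all such genes. The SD between probes had a median of 0.13 and was above 0.5 for 3 genes, CPT1B, IDH3B and UCP2.

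**Figure D1:**
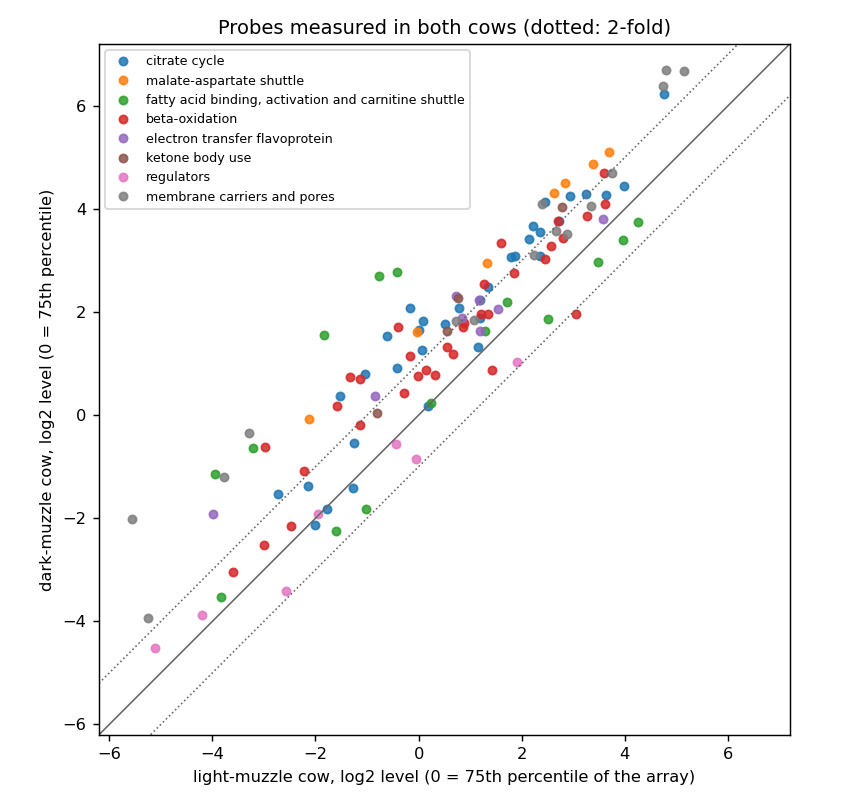
Levels of the 123 probes measured in both cows, light-muzzle cow on the x axis and dark-muzzle cow on the y axis, as log2 of the processed signal relative to the 75th percentile of each array. Each point is a probe, colored by the role of its gene; the solid line marks equal levels and the dotted lines a 2-fold difference. Most points lie above the solid line, and of all 125 probes 64 were at least 2-fold higher and 1 was lower by that much in the dark-muzzle sample. The shares over all probes of the array were not computed.

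The 12 measured enzymes and subunits of the citrate cycle had a median log2 ratio of 1.18, and 7 were higher by at least 2-fold. The largest ratio was that of SUCLA2, the subunit of succinyl-CoA ligase that makes the enzyme form ATP, 3.17-fold higher, with a log2 ratio of 1.66 ± 0.32 (SD, 4 probes) and probe levels of -2.72 to 0.08 (light muzzle) and -1.53 to 1.83 (dark muzzle). MDH2, the mitochondrial malate dehydrogenase, was 3.02-fold higher, with a ratio of 1.60 ± 0.11 (SD, 3 probes). All probes of both genes were higher by at least 2-fold. FH, the fumarase, had a ratio of 1.21 ± 0.10 (SD, 4 probes), and SUCLG1, the subunit that both forms of succinyl-CoA ligase share, had one of 1.14 ± 0.17 (SD, 2 probes). SUCLG2, which makes the enzyme form GTP, lay just short of 2-fold with 0.98 ± 0.25 (SD, 3 probes).

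The subunits of the NAD-dependent isocitrate dehydrogenase, a control point of the cycle, were all higher in the dark-muzzle cow but by different amounts. IDH3A, the catalytic subunit, had a ratio of 1.22 ± 0.10 (SD, 2 probes) and IDH3G one of 0.71 ± 0.03 (SD, 2 probes). IDH3B had the mean 1.46, yet its 4 probes were far apart. The probes assigned to NM_001167874 had ratios of 2.14 and 2.24, whereas those assigned to NM_001145872 had ratios of 0.01 and 1.45. The probe with no difference had levels of 0.18 (light muzzle) and 0.19 (dark muzzle). IDH2, the NADP-dependent enzyme of the mitochondrion, had a ratio of 1.29 ± 0.07 (SD, 3 probes), with all of its probes above 2-fold.

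The genes of the cycle were not all higher by a similar amount. CS, the citrate synthase that opens the cycle and is widely used as a measure of mitochondrial content, had levels of 1.01 and 1.26 in the light- and dark-muzzle cow and a ratio of 0.25 ± 0.35 (SD, 3 probes), from probes at -0.06, 0.18 and 0.63. Its difference was thus smaller than the spread of its probes. DLST, the core subunit of the oxoglutarate dehydrogenase complex, went from -1.64 to -1.77, a ratio of -0.13 with probes at -0.14 and -0.11. Both probes lay within their scanner errors of 0.20 and 0.21. OGDH, the first enzyme of that complex, was higher, with a ratio of 0.61 ± 0.20 (SD, 2 probes). The ratios of DLST, CS and OGDH were the smallest among the citrate cycle genes measured.

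The malate-aspartate shuttle carries the electrons of cytosolic NADH into mitochondria. The 3 of its enzymes that were grouped under it here were all higher by at least 2-fold in the dark-muzzle sample. GOT1, the cytosolic aspartate aminotransferase, had levels of 0.36 and 2.21, a ratio of 1.85 ± 0.28 (SD, 2 probes). Its mitochondrial counterpart GOT2 had a ratio of 1.56 ± 0.13 (SD, 3 probes) and MDH1, the cytosolic malate dehydrogenase, one of 1.58 ± 0.13 (SD, 2 probes). Every probe of the 3 genes was at least 2-fold higher.

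**Figure D2:**
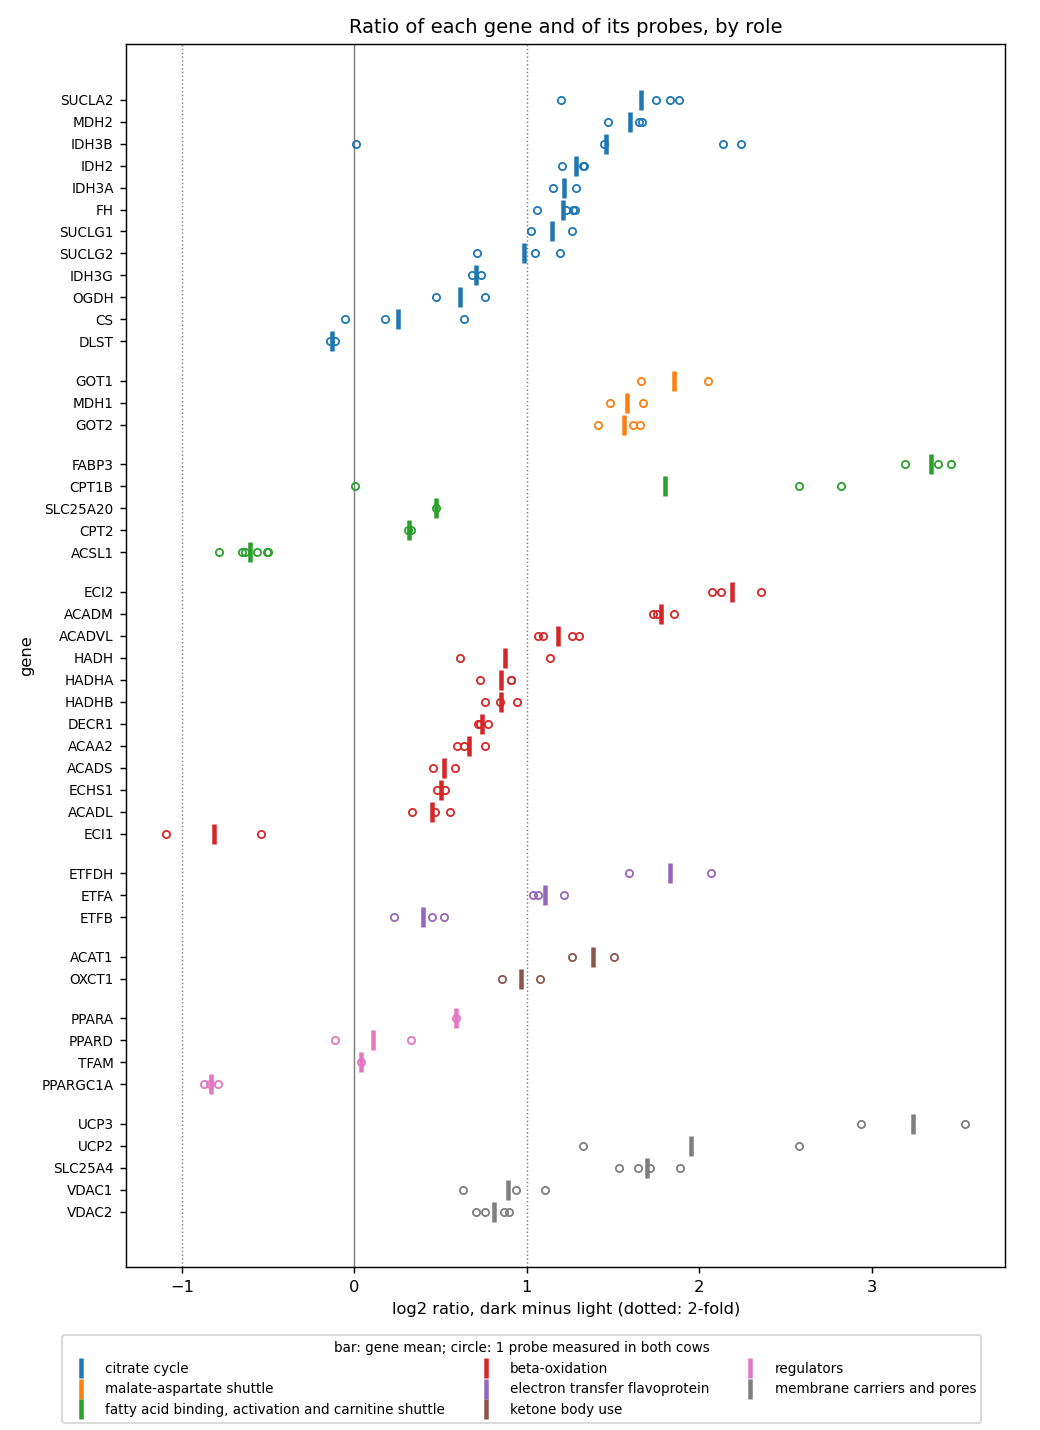
Log2 ratio, dark-muzzle minus light-muzzle cow, on the x axis for each of the 46 genes on the y axis, grouped by role. Bars are gene means and circles single probes measured in both cows; dotted lines mark 2-fold. The malate-aspartate shuttle genes lie between 1.56 and 1.85, whereas PPARGC1A, ECI1, ACSL1 and DLST lie below 0.

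The first steps of fatty acid use moved apart. FABP3, the fatty acid binding protein of heart and skeletal muscle, had the largest ratio of the set. Its mean level was -1.01 (light muzzle) and 2.34 (dark muzzle), which is 10.2-fold higher, with a log2 ratio of 3.34 ± 0.14 (SD, 3 probes). ACSL1, which joins long-chain fatty acids to coenzyme A, was lower in the dark-muzzle cow, from a level of 1.93 to 1.32. All of its 6 probes were lower, between -0.78 and -0.50, and the mean ratio was -0.61 ± 0.11 (SD), short of 2-fold.

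The carnitine shuttle moves activated fatty acids across the mitochondrial membranes. CPT1B, the muscle form of its first enzyme, had probes at 0.00, 2.58 and 2.82, and its mean of 1.80 therefore describes none of them. The probe without a difference read 0.24 in both cows, and it was the brightest of the 3, so that CPT1B was not 2-fold higher when the brightest probe was used alone, with a ratio of 0.00. The other probes had levels of -3.96 and -3.22 in the light muzzle and of -1.14 and -0.64 in the dark one. The later steps differed little. SLC25A20, the carnitine-acylcarnitine carrier, had a ratio of 0.48 from 1 probe, and CPT2, which releases the acyl-CoA inside the mitochondrion, had one of 0.32 ± 0.01 (SD, 2 probes).

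The 12 genes of beta-oxidation had a median log2 ratio of 0.79, and 3 of them, ECI2, ACADM and ACADVL, were at least 2-fold higher. The acyl-CoA dehydrogenases, which open each round and differ in the chain length they take, did not move by the same amount. ACADM, for medium chains, had levels of -0.37 and 1.41, a ratio of 1.78 ± 0.07 (SD, 3 probes), and ACADVL, for very long chains, had levels of 1.86 and 3.04, a ratio of 1.18 ± 0.12 (SD, 4 probes). ACADS, for short chains, had a ratio of 0.52 ± 0.09 (SD, 2 probes) and ACADL, for long chains, one of 0.45 ± 0.11 (SD, 3 probes). The probe ranges of ACADM and ACADVL overlapped neither each other nor those of ACADS and ACADL.

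The steps that follow were higher by less than 2-fold. HADHA and HADHB, the subunits of the trifunctional protein that handles long chains, had the same ratio to 2 decimals, 0.85 ± 0.10 and 0.85 ± 0.09 (SD, 3 probes each). HADH, the dehydrogenase for shorter chains, had a ratio of 0.87 ± 0.37 (SD, 2 probes), ACAA2, a thiolase, one of 0.66 ± 0.08 (SD, 3 probes) and ECHS1, the short-chain hydratase, one of 0.50 ± 0.03 (SD, 2 probes).

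Among the helper enzymes for unsaturated fatty acids, the isomerases ECI1 and ECI2 went in opposite directions. ECI2 was 4.55-fold higher in the dark muzzle, from a level of -1.57 to 0.62, with probes at 2.08, 2.13 and 2.36 and a mean of 2.19. ECI1 was lower, from 2.23 to 1.42, with probes at -1.09 and -0.54 and a mean of -0.82. The probe at -1.09, the brighter of the pair, was the only probe of the 46 genes with a 2-fold lower dark-muzzle level. DECR1, the dienoyl-CoA reductase, had a ratio of 0.74 ± 0.03 (SD, 3 probes).

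The electron transfer flavoprotein takes electrons from the acyl-CoA dehydrogenases, and its dehydrogenase hands them to ubiquinone. ETFDH, that dehydrogenase, had a ratio of 1.83 ± 0.33 (SD, 2 probes), from levels of -1.63 and 0.20. One more probe of ETFDH was well above background in the dark-muzzle sample alone and is not part of this ratio. Its levels of -5.52 and -4.19 differ by 2.51-fold, with a scanner error of 0.44 on the log2 scale. The subunits of the flavoprotein differed from each other. ETFA had a ratio of 1.10 ± 0.10 and ETFB one of 0.40 ± 0.15 (SD, 3 probes each), with no overlap between their probes. The enzymes of ketone body use were also higher, ACAT1, the mitochondrial thiolase, by 1.38 ± 0.17 (SD, 2 probes) and OXCT1, the transferase that lets tissues burn ketone bodies, by 0.97 ± 0.15 (SD, 2 probes).

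**Figure D3:**
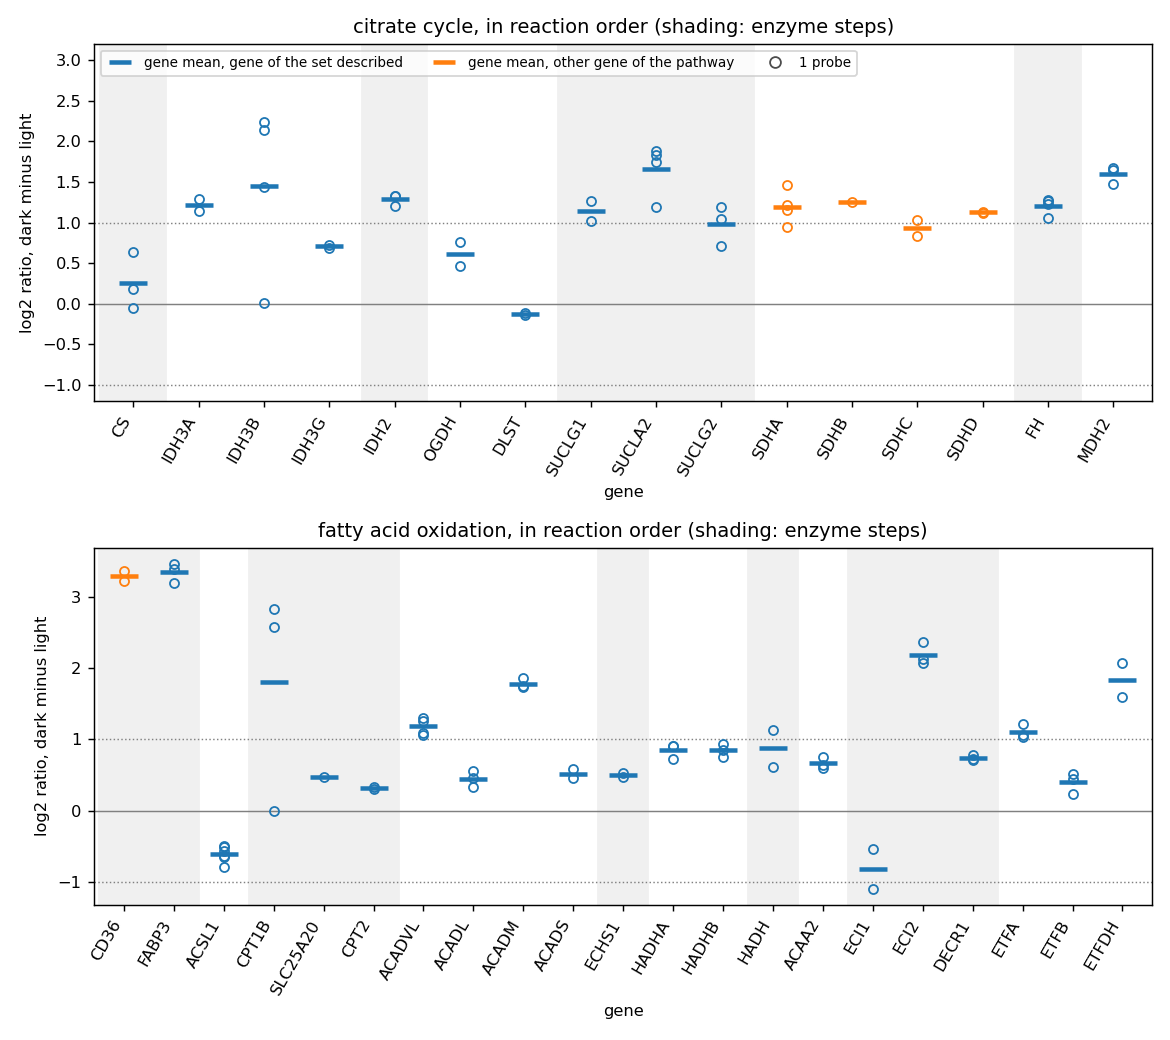
Log2 ratio, dark-muzzle minus light-muzzle cow (y axis), of the citrate cycle genes (upper panel) and of the genes of fatty acid uptake and oxidation (lower panel), in reaction order along the x axis. Bars are gene means, circles single probes, shading separates enzyme steps dotted lines mark 2-fold and orange marks genes of the pathways outside the 49. From isocitrate dehydrogenase to malate dehydrogenase, the oxoglutarate dehydrogenase subunits OGDH and DLST lie lowest, and FABP3 and CD36 lie highest in the lower panel.

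The 5 carriers and pores of mitochondrial membranes among the 46 genes were all higher in the dark-muzzle cow. SLC25A4, the adenine nucleotide translocator that prevails in heart and muscle and exchanges ADP for ATP, had levels of 4.27 and 5.97, a ratio of 1.69 ± 0.15 (SD, 4 probes). VDAC1 and VDAC2, pores of the outer membrane, had ratios of 0.89 ± 0.24 (SD, 3 probes) and 0.81 ± 0.09 (SD, 4 probes), both short of 2-fold. UCP3, the uncoupling protein of skeletal muscle, was 9.45-fold higher, with probe levels of -5.56 and -3.28 in the light muzzle, of -2.02 and -0.34 in the dark one, and a mean log2 ratio of 3.24. The lowest light-muzzle level well above background was -5.78, so 1 of the probes of UCP3 was near it, and under normexp background correction the ratio of UCP3 was 2.14. UCP2, a more widely expressed relative, had probes at 1.33 and 2.57 and a mean of 1.95, or 1.30 under normexp, and it too was dim in the light-muzzle cow, with a mean level of -4.51.

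None of the 4 regulators measured among the 46 genes was at least 2-fold higher, whereas some regulators outside the set, described below, were. PPARGC1A, the coactivator known for raising the expression of mitochondrial and fatty acid oxidation genes, was lower in the dark-muzzle cow. Its mean level was -0.24 in the light muzzle and -1.08 in the dark one, with probes at -0.87, -0.84 and -0.79 and a mean ratio of -0.83 ± 0.04 (SD, 3 probes), or 1.78-fold. PPARA, the fatty acid sensor best known from liver, had a ratio of 0.59 from 1 dim probe, with levels of -5.11 and -4.52. PPARD, a related receptor with a role in muscle, had probes at -0.11 and 0.33, and TFAM, which packs and transcribes mitochondrial DNA, had a ratio of 0.04 from 1 probe. The median of the 4 regulators was 0.07, and it was -0.04 when the brightest probe of each gene was used.

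Related genes were compared in chosen pairs, mostly a form known from muscle and another form. Some relatives outside the pairs had high ratios too, FABP7 with 1.93 and VDAC3 with 1.79. FABP3 had a ratio larger by 2.86 than FABP4, the form of adipocytes, and by 2.94 than FABP5, the form of epidermis, whose ratios were 0.48 (1 probe) and 0.40 ± 0.29 (SD, 3 probes). SLC25A4 exceeded SLC25A5, the translocator of proliferating cells, by 1.73, as SLC25A5 had levels of 2.82 and 2.79 and a ratio of -0.03 ± 0.10 (SD, 3 probes). SLC25A6, a further translocator, had probes at -0.49, -0.42, 0.96 and 1.21, and how far probes of these similar genes read each other's RNA was not tested. None of the probes of the second gene reached the lowest probe of the first in these comparisons.

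The other pairs were closer. UCP3 exceeded UCP2 by 1.29, but by 0.36 when the brightest probe of each was used. IDH2 exceeded IDH1, its cytosolic counterpart, by 1.19, with a ratio of 0.09 from the single probe of IDH1. ACAT1 exceeded the cytosolic ACAT2 by 0.69, and SUCLA2 exceeded SUCLG2 by 0.68. In the last pair the lowest probe of SUCLA2 and the highest of SUCLG2 were both near 1.2, at 1.196 and 1.191. All of these differences are between genes on the same 2 arrays and carry no estimate of the spread between cows.

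**Figure D4:**
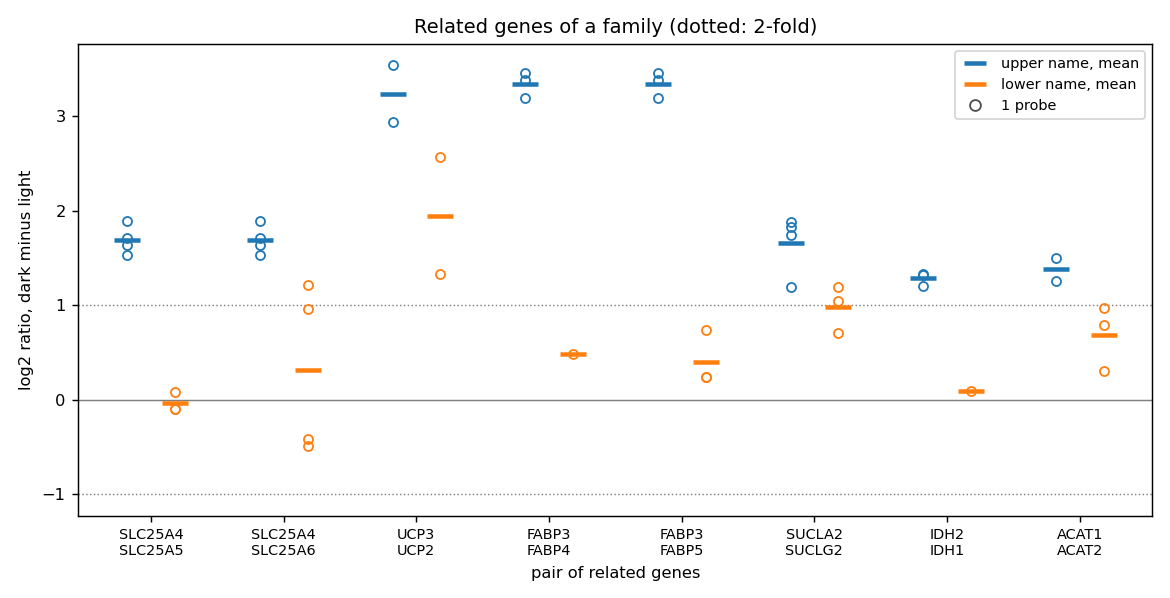
Log2 ratio, dark-muzzle minus light-muzzle cow (y axis), for 8 pairs of related genes (x axis; the upper name in blue, the lower in orange). Bars are gene means and circles single probes measured in both cows. The probes of FABP3 lie between 3.19 and 3.46 and those of FABP4 and FABP5 between 0.24 and 0.73.

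Further genes of the same pathways were read from lists of genes outside the 49. Of 21 measured genes of the citrate cycle, pyruvate entry and mitochondrial shuttles, 10 were at least 2-fold higher and 1 at least 2-fold lower. Their median was 0.97. Among all named genes, 9.86% were at least 2-fold higher and 6.47% lower. The 10 included the succinate dehydrogenase subunits SDHA (1.19), SDHB (1.25) and SDHD (1.13), while SDHC had a ratio of 0.94. They also included the pyruvate dehydrogenase genes PDHA1 (1.15), PDHB (1.18) and PDHX (1.24), the mitochondrial pyruvate carrier subunit MPC1 (1.77), the aspartate-glutamate carrier SLC25A12 (1.16) and PDK4 (1.60), a kinase that shuts off pyruvate dehydrogenase. The gene that was lower was PC, pyruvate carboxylase (-1.39), which did not pass 2-fold with no filter on dim probes. The ratios of SDHB, MPC1 and SLC25A12 came from 1 probe each.

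Of 27 further genes of fatty acid uptake and mitochondrial oxidation, 6 were at least 2-fold higher and 2 were at least 2-fold lower. The median was 0.38. For comparison, the shares over all named genes were 9.86% higher and 6.47% lower. CD36, a fatty acid transporter of the cell surface, was 9.76-fold higher, LPL, the lipoprotein lipase, 4.95-fold and CRAT, the carnitine acetyltransferase, 4.01-fold. The 3 probes of LPL were far apart, with log2 ratios between 1.33 and 2.81. ACOT13 (1.33), a thioesterase, MLYCD (1.34), the malonyl-CoA decarboxylase, and BDH1 (1.16), a ketone body dehydrogenase, were the others, the last pair with 1 measured probe each. ECHDC2 was among the lower ones, with a ratio of -1.17 from 1 probe.

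Of 8 other regulators with a ratio, 3 were at least 2-fold higher, against 9.86% of all named genes. PERM1, a muscle regulator induced by PPARGC1A and its partner receptors, had a ratio of 3.03 from 1 probe, PPARG, the receptor best known from adipocytes, one of 1.48, and RXRG a lower bound of 4.41-fold. NRF1 (0.12), GABPA (0.28) and TFB2M (0.64), which act on mitochondrial genes in most cells, were not 2-fold different. Among 11 other isoforms of carriers and binding proteins, CKMT2, the mitochondrial creatine kinase of striated muscle, was 13.3-fold higher. VDAC3 (1.79), FABP7 (1.93) and OXCT2 (1.04) were also at least 2-fold higher. OXCT2 had 1 measured probe, dim in the light-muzzle cow (-3.70). The number of these isoforms at least 2-fold higher was thus 4, and 3 under normexp and with no filter on dim probes. The median over the 11 genes was 0.48.

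General mitochondrial machinery was set beside the metabolic genes. Of 67 measured genes for protein import, chaperones, mitochondrial ribosomes and mitochondrial DNA maintenance, 60 had a ratio above 0, and the median was 0.45. At least 2-fold higher were 6 of them (8.96%), a share near the 9.86% of all named genes, and their number was 3 under quantile normalization, with 1 gene lower, and 4 under normexp and with the brightest probes. The median of 0.45 compares with 0.93 for the 46 genes, 36 of which lay above 0.45. For all named genes measured in both cows, the upper quartile was 0.43, just under that cutoff. The median of all named genes measured in both cows was 0.05, and over the alternatives it lay between -0.0030 and 0.099.

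Markers of other tissues also differed between the pieces of muzzle. All of 23 measured skeletal muscle genes were higher by at least 2-fold in the dark-muzzle sample, with a median of 3.32 and a range of 2.24 to 3.68. Their summed signal, in multiples of the 75th percentile, was 269 (light muzzle) and 1759 (dark muzzle), and none of them was at background in either cow. The 9 genes of slow fibres had a median of 3.31, and the 10 of fast fibres one of 3.41 with 1 of them, PVALB, lower (-1.15). By gene mean, 44 of the 46 metabolic genes lay below the lowest of the muscle genes, and FABP3 and UCP3 lay within their range. Most named genes lay below it too, as 9.86% of them were at least 2-fold higher. That lowest muscle gene, ACTA1, had probes from 1.66 to 2.88, so single probes of more metabolic genes, such as ECI2 (2.08 to 2.36), overlapped with it.

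The serous gland genes went the other way, with 7 of 10 at least 2-fold lower. The other 3 were above 0, and 1 of them, BPIFA1, was at least 2-fold higher. The median was -2.50 over 9 measured in both cows, and the summed signal was 290 (light muzzle) and 22.1 (dark muzzle). BPIFA1 had 1 dim probe, with a light-muzzle level of -5.17, and under normexp 0 were higher. Of the 7, STATH has a bound only, and with bounds left out 6 were lower. Among all named genes, 9.86% were at least 2-fold higher and 6.47% lower. The adipocyte markers had a median of 0.51 and summed signals of 232 (light muzzle) and 312 (dark muzzle), and FABP4 had levels of 7.70 and 8.18. Of 9 adipocyte genes, 3 were at least 2-fold higher, among them LEP with a bound only, and 1 was lower, CIDEC, from 1 measured probe. The number higher was 2 under normexp and with bounds left out, and 4 with no filter on dim probes. The number lower was 0 under normexp and with no filter. The keratinocyte markers, which check the labelled tissue, were all well above background in both cows, with a median of 0.43 over 8 genes. They were split, from KRT5 at -0.52 to KRT10 at 1.57, with 6 above 0, of which 2 were at least 2-fold higher, and 2 below 0. The medians were -0.53 for 8 fibroblast genes, 0.66 for 8 endothelial genes, 0.86 for 7 melanocyte genes and -0.17 for 8 leukocyte genes, and with no filter on dim probes the last 2 were 1.34 (9 genes) and 0.04. Of 9 melanocyte genes with a ratio, 5 were at least 2-fold higher, against 9.86% of all named genes, and 2 were below 0. The 5 include TYRP1 and EDNRB, which have a bound only. Their number was 3 under normexp and with bounds left out, and 6 with no filter on dim probes. The part of muscle, gland and the other tissues in the ratios of the metabolic genes was not tested, and with 1 cow each the muzzle color, the animal and the piece of tissue cannot be told apart.

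**Figure D5:**
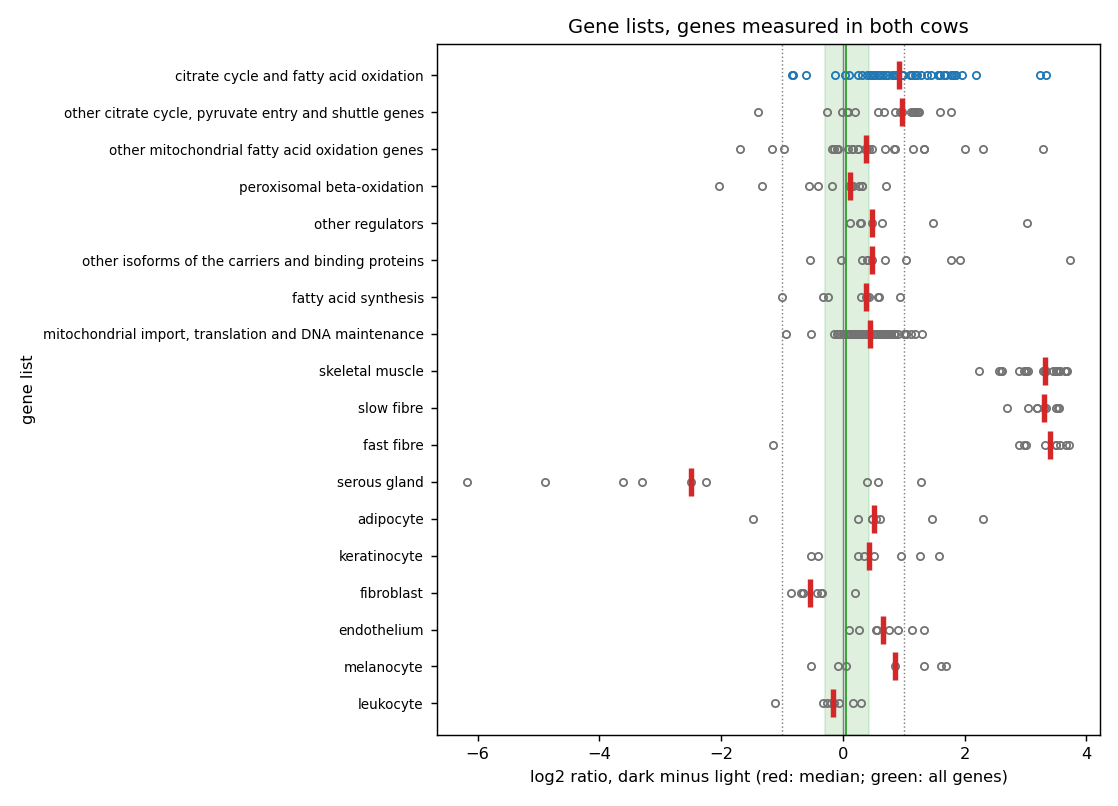
Log2 ratio, dark-muzzle minus light-muzzle cow (x axis), for the genes of each list (y axis) that were measured in both cows. Circles are genes, red bars list medians, the green line and band the median and quartiles of all named genes, and dotted lines 2-fold. The 46 genes have a median of 0.93, between the general mitochondrial genes at 0.45 and the skeletal muscle genes at 3.32.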

How the data were processed

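Total RNA of 2 muzzle samples, 1 per muzzle color, was labelled with Cy3 and hybridised to 1-color Agilent bovine arrays that lay on the same slide. The deposited scanner files were written by Feature Extraction 10.7.3.1 and give each spot an intensity, the processed signal, which that software had corrected for background and for trends over the array. A deposited table of log2 values came within 0.01 of the levels computed here for 43627 of 43639 probes on each array, with medians of -2.47 and -2.45, and served as an alternative.

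Here, the log2 processed signal was shifted by the 75th percentile of the noncontrol spots of its array. Spots with an outlier mark on either array (21 in all) were dropped before the spots of each probe were averaged. Probes were named through RefSeq accessions of the ARS-UCD2.0 gene table, which matched 20587 of 43639 probes (47.2%), and no coordinate was taken from it. The ratio of a gene is the mean over its probes well above background in both samples. If there was none, it is the largest lower bound. For it, a dim level that lay under the lowest level well above background on its array was raised to that level. Genes past 2-fold were counted without a test.

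The 49 genes and the gene lists were chosen with earlier results of these data known. All 46 measured genes were named, and further genes were named where they are relatives of these or passed 2-fold in a pathway list, apart from 2 that are not reported here and the 6 of general mitochondrial machinery, which are given as a count. The rule that every probe must pass 2-fold was added after the data had been seen. limma 3.58.1 (R 4.3.3) gave the quantile, loess (span 0.3) and normexp (offset 50, median pixel signals) values. All other steps ran in Python 3.11.15 with pandas 2.3.3 and numpy 2.4.6. The counting was tested on simulated data.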

Additional observations from a re-analysis of the deposited data

How the results depend on the processing

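The count of genes at least 2-fold higher was 21 or 22 under every normalization, background correction, filter and rule for probes that was tried, and 19 if every measured probe had to pass; 20 of the 21 genes passed under all of these apart from that last rule, the exception being CPT1B. With thresholds of 1.5-fold and 3-fold, 33 and 11 genes were higher. The shares of all named genes at these thresholds were not computed, so how far these counts exceed them is not known. The count of lower genes was 0 as reported, 1 with the brightest probe of each gene (ECI1) and 3 at 1.5-fold (ECI1, PPARGC1A and ACSL1). The median of the 46 genes lay between 0.88 and 0.95, that of the citrate cycle between 1.09 and 1.18 and that of beta-oxidation between 0.67 and 0.81. Of the 46 ratios only that of PPARD changed sign, to -0.11 with the brightest probe. The ratio of UCP2 was 1.30 under normexp and 2.57 with its brightest probe, and that of CS lay between 0.18 and 0.63. Among all named genes, 879 were at least 2-fold higher and 577 lower, against 635 and 371 under normexp. No paired analysis was possible because there is 1 array per muzzle color, and no replicate could be left out. Dim probes limit UCP2, UCP3 and PPARA, whose light-muzzle levels were near background.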

Other observations

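Peroxisomal fatty acid oxidation and fatty acid synthesis were also read. Of 13 peroxisomal beta-oxidation genes with a ratio, 0 were at least 2-fold higher and 2 were lower by at least 2-fold, CROT, a carnitine acyltransferase of peroxisomes (-2.03, with probes between -2.15 and -1.91), and EHHADH, the bifunctional enzyme (-1.33, with probes between -1.41 and -1.24). Among all named genes, 9.86% were at least 2-fold higher and 6.47% lower. With no filter on dim probes 2 of the 13 were at least 2-fold higher, and under normexp 1 was lower. The median log2 ratio of the 12 measured in both cows was 0.11, and it was -0.10 with the brightest probe of each gene. Of 10 genes of fatty acid synthesis, 0 were at least 2-fold higher and 1, THRSP, was 2-fold lower with probes that disagreed, between -2.91 and -0.15, and their median was 0.38. Under normexp, and with the median of the probes, 0 were lower, and with no filter on dim probes 1 was higher. No test was made of the difference between these lists and the mitochondrial genes.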
